A study of Mus musculus with 12 samples.

Results

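The 10 genes described here encode cyclins of the G1 phase of the cell cycle, the kinases these cyclins activate and the inhibitors that hold the kinases back. They are Ccnd1, Ccnd2, Ccnd3, Ccne1, Cdk4, Cdk6, Cdkn1a, Cdkn1b, Cdkn2c, and Cdkn2d. They were chosen by name, for their role, out of the 38127 genes counted in each library, with earlier results of these data known. All 10 passed the filter on low counts in every comparison.

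RNA was sequenced from 4 sorted populations of C57BL/6 mouse fetal liver (FL), with 3 libraries each. All 4 were gated as Ter119-CD45- cells, that is, without the red cell marker Ter119 and the leukocyte marker CD45. At embryonic day 14.5 (E14.5), P2 cells were CD54-CD31-Kit+CD24+, CD31+ cells were CD54+CD31+, and the cells that the paper calls CD324+ were labelled CD54+CD31-. CD54+CD31- cells were also sorted at E18.5. The E14.5 libraries come from independent litters by the published account, and nothing states whether the E18.5 libraries come from separate litters. If they do not, the p-values for age measure a spread between samples that may be technical.

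D-type cyclins bind CDK4 or CDK6 when growth signals reach a cell, and these complexes phosphorylate the retinoblastoma protein, which then releases the E2F factors that start the S phase program. Cyclin E with CDK2 completes that step. The INK4 proteins, among them p18 (Cdkn2c) and p19 (Cdkn2d), bind CDK4 and CDK6 themselves, whereas the CIP/KIP proteins p21 (Cdkn1a) and p27 (Cdkn1b) bind cyclin and kinase complexes. In the FL, erythroid progenitors divide rapidly, hepatoblasts expand and then slow their divisions towards birth, and endothelial cells line the sinusoids.

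Total counts per library ranged from 40714017 to 64368883. Levels are given as counts per 1000000 counts (CPM) after TMM normalization, which sets library sizes on the assumption that most genes keep the same level. Fold changes were tested over all genes by the quasi-likelihood method of edgeR with p-values adjusted by Benjamini-Hochberg, and a gene is said to have risen, fallen or changed where the adjusted p was below 0.05. Marker genes were in place at E14.5: the summed level of 7 hepatoblast genes was 62415 to 71421 CPM in CD324+ libraries, that of 6 endothelial genes was 8614 to 9139 in CD31+ libraries, and that of 6 erythroid genes was 1462 to 1678 in P2 libraries, where Alas2, which encodes the erythroid heme synthesis enzyme, was listed at 0 as in every other library. The erythroid sum was not at 0 in the other E14.5 populations, with 261 to 403 CPM in CD324+ and 166 to 239 CPM in CD31+ libraries, and 6 macrophage genes summed to 96.0 to 176 CPM in CD324+ libraries against at most 6.45 in P2 libraries. The part of these cells in the differences from P2 cells was not tested. P2 replicate 2 stood apart in the endothelial sum, with 351 CPM against at most 94.9 in the other P2 libraries. The E18.5 libraries held 7 lung epithelium genes such as Sftpc at a sum of 8497 to 19394 CPM, against at most 4.47 in any E14.5 library, and 6 mesenchymal genes at 3895 to 4325 CPM, against at most 229. E18.5 replicate 1 had the highest lung sum and the lowest hepatoblast sum, 5501 CPM against 33159 and 42515 in replicates 2 and 3. The age comparison is therefore one between libraries of different cell content, and fewer cells of a type and less RNA per cell cannot be told apart in any of these bulk libraries.

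In P2 cells Ccnd2, Ccne1, Cdk4, and Cdk6 were higher, and Ccnd1, Cdkn1a, Cdkn1b, and Cdkn2d were lower, than in CD324+ and in CD31+ cells. Against CD324+ cells, 9 of the 10 changed, 4 higher and 5 lower, where 70% of the 15461 genes tested changed (33.8% higher, 36.1% lower). Against CD31+ cells, 9 changed, 4 higher and 5 lower, where 73.7% of all genes changed (34.3% higher, 39.4% lower). Between CD31+ and CD324+ cells, 6 changed, 4 higher and 2 lower in CD31+ cells, where 65.6% of all genes changed (31.7% higher, 34% lower). From E14.5 to E18.5, 8 changed in CD54+CD31- cells, 3 higher and 5 lower, where 69.4% of the 15863 genes tested changed (35.9% higher, 33.5% lower). With backgrounds this high, the number of members that changed is close to that of any 10 genes, and the sizes and directions below carry the description. The comparisons share libraries, so they are not independent of each other.

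**Figure D1:**
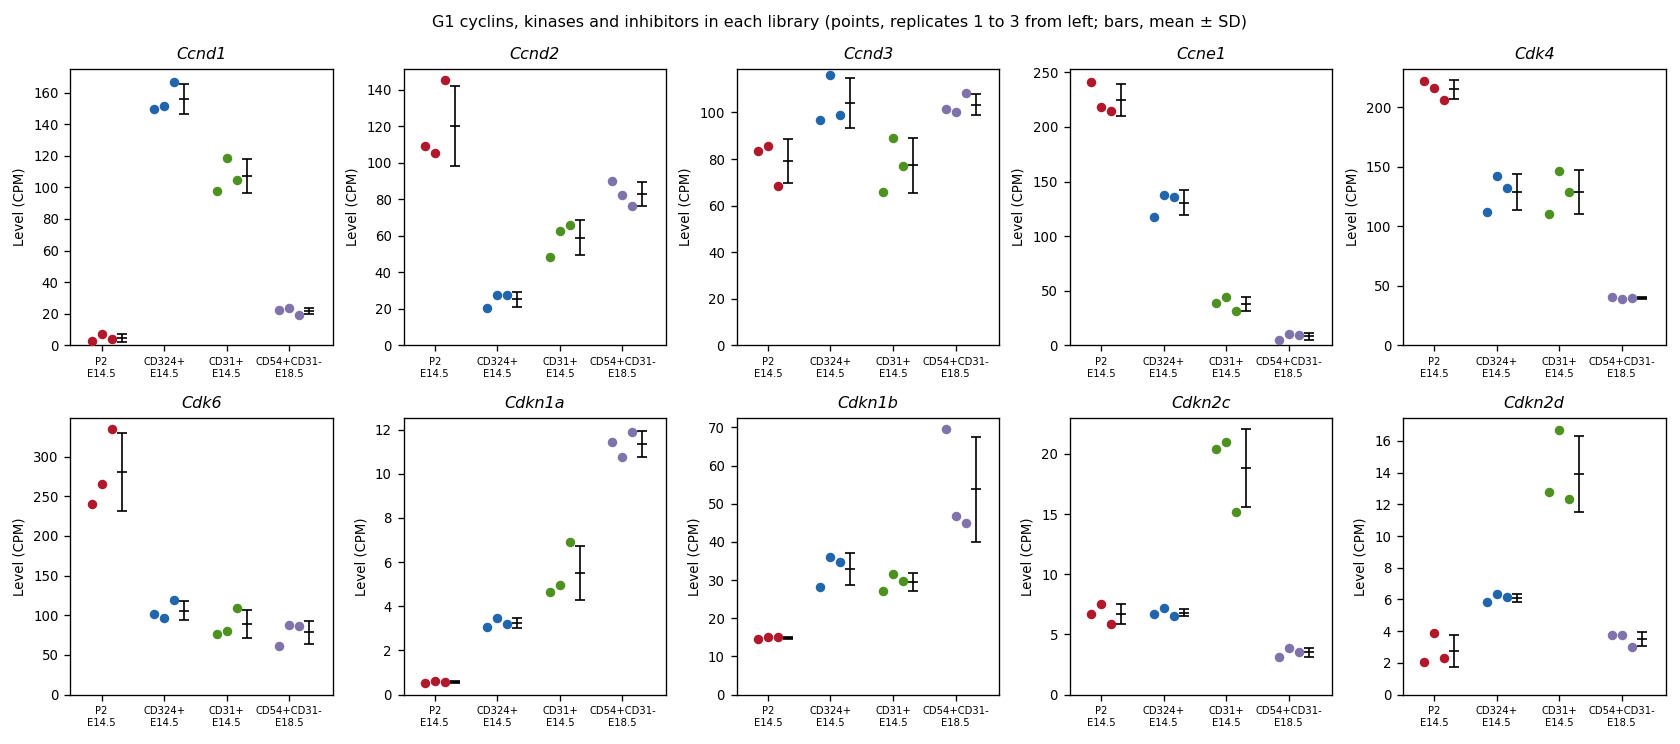
Level of each of the 10 genes in each of the 12 libraries (vertical axes, CPM on linear scales that start at 0), with 1 point per library and the mean ± SD of 3 libraries beside them. The red P2 points are the lowest for Ccnd1 and Cdkn1a and the highest for Ccne1, Cdk4, and Cdk6, and the purple E18.5 points are the lowest for Ccne1 and Cdk4.

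Among the D-type cyclins, Ccnd1 differed most. Ccnd1 (chromosome 7, 144929931 to 144939925, minus strand, GRCm38) had 2.87, 7.31, and 3.97 CPM in P2 replicates 1, 2, and 3, 150, 152, and 167 CPM in the CD324+ libraries, and 97.5, 119, and 105 CPM in the CD31+ libraries. At E18.5 it had 22.5, 23.5, and 19.5 CPM. No library of one population overlapped with those of another, in the order CD324+, CD31+, E18.5 CD54+CD31-, and P2. Ccnd1 was 33.5-fold lower in P2 than in CD324+ cells (log2 fold change -5.06 ± 0.30, SE, adjusted p = 1.23e-07), and its log2 fold change against CD31+ cells was -4.51 ± 0.29 (adjusted p = 3.17e-07). P2 replicate 2, the P2 library with the most Ccnd1, was also the one with the highest endothelial sum. Without it, the log2 fold changes of Ccnd1 were -5.52 and -4.96, so the difference was as large without that library. Between CD31+ and CD324+ cells the log2 fold change of Ccnd1 was -0.55 ± 0.25 (adjusted p = 0.0706). This value passed the threshold with the replicate number as a block (paired fit, -0.57, adjusted p = 0.0404), in a fit of the 6 compared libraries alone (adjusted p = 0.000641), and without the low count filter (adjusted p = 0.0343). From E14.5 to E18.5 Ccnd1 fell by 2.65 on the log2 scale (SE 0.11, adjusted p = 1.5e-05).

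Ccnd2 ran the other way. Ccnd2 (chromosome 6, 127125162 to 127152193, minus strand) had 109, 106, and 145 CPM in P2 libraries, 89.9, 82.3, and 76.5 at E18.5, 48.5, 62.6, and 66.3 in CD31+ libraries, and 20.3, 27.7, and 27.7 in CD324+ libraries. Again no population overlapped with another, and P2 cells, last in Ccnd1, came first. Ccnd2 was 4.7-fold higher in P2 than in CD324+ cells (log2 fold change 2.23 ± 0.18, adjusted p = 1.25e-06), and its log2 fold change was 1.01 ± 0.17 against CD31+ cells (adjusted p = 0.000322). It was higher in CD31+ than in CD324+ cells by 1.22 ± 0.17 (adjusted p = 0.00012) and rose by 1.91 ± 0.14 from E14.5 to E18.5 (adjusted p = 5.78e-05), all on the log2 scale.

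Ccnd3 varied least of the 3. Ccnd3 (chromosome 17, 47505051 to 47599691, plus strand) had 83.5, 85.5, and 68.5 CPM in P2 libraries, 96.6, 116, and 98.9 in CD324+ libraries, 65.8, 89.2, and 76.9 in CD31+ libraries, and 102, 100.2, and 108 at E18.5. The P2 and CD31+ libraries overlapped, as did the 2 ages of CD54+CD31- cells. Ccnd3 was lower in P2 than in CD324+ cells (log2 fold change -0.41 ± 0.13, adjusted p = 0.0176) and lower in CD31+ than in CD324+ cells (-0.43 ± 0.13, adjusted p = 0.0145). Both calls rested on single libraries. The first was lost without CD324+ replicate 2 (-0.34, adjusted p = 0.0613) or P2 replicate 3 (-0.31, adjusted p = 0.0815), and the second without CD31+ replicate 1 (-0.33, adjusted p = 0.0529). Between P2 and CD31+ cells the log2 fold change was 0.02 ± 0.13 (adjusted p = 0.882), but with the authors' library factors it was -0.34 (adjusted p = 0.0326). From E14.5 to E18.5 it was 0.18 ± 0.10 (adjusted p = 0.148), 0.42 with the authors' factors (adjusted p = 0.01), and 0.33 where at least 10 counts were asked of every library (adjusted p = 0.0216).

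To compare the cyclins with each other, CPM were divided by the length of the merged exons of each gene. On this scale (CPM per kilobase) the summed level of the 3 D-type cyclins was 47.7 ± 2.43 in CD324+ libraries, 37.8 ± 4.35 in CD31+ libraries, 25.2 ± 0.640 at E18.5, and 22.8 ± 1.20 in P2 libraries (SD, n = 3 libraries each). The libraries of P2 cells (21.7 to 24.1) and CD324+ cells (44.9 to 49.6) did not overlap. P2 cells, with the most Cdk4, Cdk6, and Ccne1, thus had the lowest mean D-type cyclin sum.

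The make-up of that sum differed more than its size. In P2 cells Ccnd2 was 55.8% ± 7.41 of it, Ccnd3 39.8% ± 6.41, and Ccnd1 4.40% ± 2.19 (SD, n = 3 libraries). In CD324+ cells Ccnd1 was 69.5% ± 2.60, Ccnd3 24.9% ± 2.35, and Ccnd2 5.60% ± 0.707. CD31+ cells had the same order of Ccnd1 (60.2% ± 1.84), Ccnd3 (23.2% ± 0.865), and Ccnd2 (16.6% ± 1.68), with less Ccnd1 and more Ccnd2. At E18.5 Ccnd3 was 46.7% ± 2.99, Ccnd2 34.9% ± 1.94, and Ccnd1 18.4% ± 1.51. Without E18.5 replicate 1 they were 47.8%, 33.9%, and 18.3%. An exact permutation test (two-sided) of each share gave p = 0.1, the smallest value that 3 libraries against 3 allow, in each comparison except that of the Ccnd3 share between CD31+ and CD324+ cells, which overlapped (p = 0.4). Over the 16 share tests, which include those on Cdk6 below, the adjusted p was 0.114 where libraries did not overlap.

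**Figure D2:**
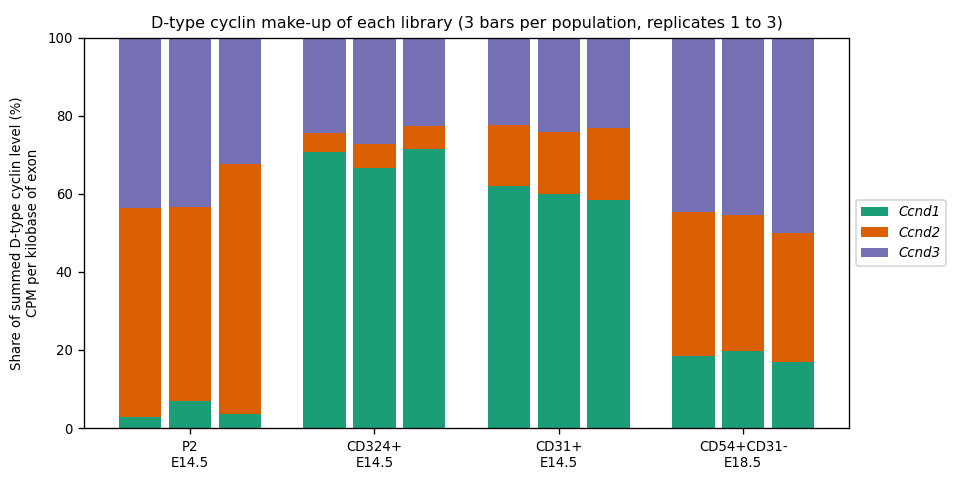
Share of Ccnd1, Ccnd2, and Ccnd3 (vertical axis, percent of the summed CPM per kilobase of exon) in each of the 12 libraries, 3 bars per population. Ccnd1 fills 66.6% to 71.4% of the CD324+ bars and 2.80% to 6.89% of the P2 bars, where Ccnd2 fills 49.8% to 64.1%.

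Ccne1 (chromosome 7, 38097984 to 38107534, minus strand) encodes cyclin E1. It had 241, 218, and 215 CPM in P2 libraries, 118, 138, and 136 in CD324+ libraries, 38.9, 44.0, and 31.5 in CD31+ libraries, and 4.66, 10.2, and 10.01 at E18.5. None of the 4 populations overlapped. Ccne1 was 1.7-fold higher in P2 than in CD324+ cells (log2 fold change 0.76 ± 0.12, adjusted p = 0.000243), and the log2 fold change was 2.55 ± 0.13 against CD31+ cells (adjusted p = 8.63e-08). Over the alternatives described below, the value against CD324+ cells ranged from 0.50 to 0.80. CD31+ cells had less Ccne1 than CD324+ cells (-1.78 ± 0.13, adjusted p = 6.16e-07). From E14.5 to E18.5 it fell by 3.80 on the log2 scale (SE 0.30, adjusted p = 7.32e-05), and the log2 fold change was -3.53 without E18.5 replicate 1, the library with the least Ccne1. Its partner gene Ccne2, cyclin E2, had the same order of populations over a smaller range, from 43.9 ± 2.92 CPM in P2 libraries to 6.27 ± 1.62 at E18.5 (SD, n = 3).

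The 2 kinase genes were both higher in P2 cells. Cdk4 (chromosome 10, 127063534 to 127067920, plus strand) had 222, 216, and 206 CPM in P2 libraries, 112, 142, and 132 in CD324+ libraries, 110, 147, and 129 in CD31+ libraries, and 40.6, 39.3, and 39.9 at E18.5. The CD324+ and CD31+ libraries overlapped, and P2 and E18.5 libraries lay above and below both. Cdk4 was 1.65-fold higher in P2 than in CD324+ cells (log2 fold change 0.72 ± 0.12, adjusted p = 0.000299), and the log2 fold change against CD31+ cells was 0.73 ± 0.12 (adjusted p = 0.00025). Over the alternatives described below, Cdk4 had log2 fold changes of 0.46 to 0.78 against CD324+ cells and 0.36 to 0.90 against CD31+ cells. It was 2.83-fold lower at E18.5 than at E14.5 (SE of the log2 fold change 0.10, adjusted p = 4.25e-05). The log2 fold change between CD31+ and CD324+ cells was -0.01 ± 0.12 (adjusted p = 0.947), and its sign changed with the normalization.

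Cdk6 (chromosome 5, 3341485 to 3531008, plus strand) had 241, 266, and 335 CPM in P2 libraries, 101, 96.1, and 119 in CD324+ libraries, 76.6, 80.4, and 109 in CD31+ libraries, and 61.2, 87.4, and 86.4 at E18.5. The P2 libraries stood above all others. Cdk6 was 2.62-fold higher in P2 than in CD324+ cells (log2 fold change 1.39 ± 0.17, adjusted p = 2.76e-05), with a log2 fold change of 1.65 ± 0.17 against CD31+ cells (adjusted p = 7.67e-06). Between CD31+ and CD324+ cells it was -0.26 ± 0.16 (adjusted p = 0.188), -0.27 with the replicate block (adjusted p = 0.0213), and -0.51 without CD31+ replicate 3 (adjusted p = 0.0156). Cdk6 did not pass the test between the ages (-0.25 ± 0.15, adjusted p = 0.192), although the 3 E18.5 libraries lay below the 3 at E14.5. E18.5 replicate 1, with the highest lung sum, had the lowest level, and without it the log2 fold change was -0.11.

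Per kilobase of exon Cdk4 exceeded Cdk6 in every population, whereas without division by length Cdk6 was the larger in P2 cells (56.3% of the sum) and at E18.5 (65.8%). Cdk6 was 23.2% ± 3.75 of the summed kinase level in P2 cells, 16.1% ± 2.17 in CD324+ libraries, 13.9% ± 2.57 in CD31+ libraries, and 31.1% ± 4.55 at E18.5 (SD, n = 3). The share was larger in every P2 library (20.1% to 27.4%) than in any CD324+ (13.6% to 17.4%) or CD31+ library (11.3% to 16.4%), and larger again at E18.5 than in CD324+ cells (p = 0.1 each, exact permutation test). In the CD31+ and CD324+ libraries it overlapped (p = 0.3, exact permutation test).

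The sequences before the starts of both kinase genes are shown because Cdk4 and Cdk6 were both higher in P2 cells. The marked motif is the E-box CACGTG, to which Myc can bind. Each window runs from 250 bases before to 50 bases after the gene start of RefSeq (GRCm38.p6), 5′ to 3′ on the plus strand, with CACGTG in capitals, a sequence that reads the same on both strands. The Cdk4 window is at chr10:127063285-127063584 and the Cdk6 window at chr5:3343643-3343942, inside the longer Cdk6 gene of the GENCODE annotation.
Cdk4: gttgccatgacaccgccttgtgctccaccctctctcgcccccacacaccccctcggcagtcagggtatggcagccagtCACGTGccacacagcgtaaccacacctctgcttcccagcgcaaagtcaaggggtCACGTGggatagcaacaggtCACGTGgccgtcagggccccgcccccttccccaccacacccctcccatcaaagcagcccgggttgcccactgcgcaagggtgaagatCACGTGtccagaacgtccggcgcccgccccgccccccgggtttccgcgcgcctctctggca
Cdk6: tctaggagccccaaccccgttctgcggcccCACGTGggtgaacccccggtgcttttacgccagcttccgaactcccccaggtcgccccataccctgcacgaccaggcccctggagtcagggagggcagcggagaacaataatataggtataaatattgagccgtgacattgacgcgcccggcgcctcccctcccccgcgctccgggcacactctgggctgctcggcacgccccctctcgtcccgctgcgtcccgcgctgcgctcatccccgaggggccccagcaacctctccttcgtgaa

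The Cdk4 window held CACGTG 4 times, at -172, -118, -98, and -11 from the gene start, and the Cdk6 window held it once, at -220. Of all 32851 RefSeq windows of this length, 7.15% held it at least once and 8 windows (0.0244%), which belong to 6 genes, held it at least 4 times. Among the 11 windows found for 8 of the 10 members, 3 held it, the third being a window of Cdkn2c, which was not higher in P2 cells. The motif was one of 7 looked for in these windows, and it was chosen for display after the search. These matches describe letters only, since no binding was measured. Myc was higher in P2 cells as well (below). Between CD31+ and CD324+ cells, however, its log2 fold change was 1.12, with -0.01 for Cdk4 and -0.26 for Cdk6. A part of Myc in the kinase levels was not tested.

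Of the CIP/KIP inhibitors, Cdkn1a (chromosome 17, 29090976 to 29100727, plus strand) was the lowest of the 10 members in P2 cells per kilobase of exon. In CPM it had 0.528, 0.624, and 0.578 CPM there, from 23, 30, and 30 reads, 3.06, 3.46, and 3.21 in CD324+ libraries, 4.63, 4.95, and 6.92 in CD31+ libraries, and 11.4, 10.7, and 11.9 at E18.5. No population overlapped with another. Cdkn1a was 5.67-fold lower in P2 than in CD324+ cells (log2 fold change -2.50 ± 0.23, adjusted p = 4.31e-06), with a log2 fold change of -3.26 ± 0.24 against CD31+ cells (adjusted p = 6.88e-07). It rose by 2.00 ± 0.13 on the log2 scale from E14.5 to E18.5 (adjusted p = 3.68e-05). Its higher level in CD31+ than in CD324+ cells (0.76 ± 0.21, adjusted p = 0.00875) lost the call without CD31+ replicate 3 (0.48, adjusted p = 0.072).

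Cdkn1a is the best known target of p53, so it was set beside 15 other p53 targets. Against CD324+ cells, where Cdkn1a was lower in P2 cells, 6 of them rose and 6 fell (median log2 fold change -0.30, where that of all genes was -0.01), with Trp53inp1 at -2.42 and Btg2 at -1.91 among the lower, and Ccng1 at 1.81 and Phlda3 at 1.97 among the higher. Against CD31+ cells, where Cdkn1a was lower as well, 4 rose and 10 fell (median -1.22, all genes -0.13). Between CD31+ and CD324+ cells 6 were higher and 1 lower (median 0.38, all genes -0.03), and from E14.5 to E18.5 8 rose and 3 fell (median 0.47, all genes 0.03). Of all genes tested, 31.7% to 35.9% were higher and 33.5% to 39.4% lower in the 4 comparisons. The p53 target counts in P2 against CD324+ cells were near these shares. Mdm2, which encodes the ligase that degrades p53, had log2 fold changes from -0.30 between P2 and CD324+ cells to 0.42 between the ages.

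Cdkn1b (chromosome 6, 134920401 to 134925513, plus strand) had 14.7, 15.0, and 15.1 CPM in P2 libraries, 28.2, 36.1, and 34.7 in CD324+ libraries, 27.1, 31.6, and 29.9 in CD31+ libraries, and 69.7, 46.8, and 44.9 at E18.5. The P2 libraries were below and the E18.5 libraries above all others, while CD324+ and CD31+ libraries overlapped. Cdkn1b was 2.24-fold lower in P2 than in CD324+ cells (log2 fold change -1.16 ± 0.11, adjusted p = 4.55e-06), and the log2 fold change was -0.997 ± 0.11 against CD31+ cells (adjusted p = 1.34e-05). It rose by 0.90 ± 0.20 on the log2 scale with age (adjusted p = 0.00648), and by 0.64 without E18.5 replicate 1, which had the highest level (adjusted p = 0.000556). In CD31+ against CD324+ cells it was -0.17 ± 0.11 (adjusted p = 0.2), and -0.28 without CD324+ replicate 1 (adjusted p = 0.0323).

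The third gene of the CIP/KIP family, Cdkn1c, which encodes p57 and is expressed from the maternal allele, was counted with the wider pathway rather than with the 10 members. Cdkn1c had 6.96, 9.07, and 6.35 CPM in P2 libraries, 298, 342, and 318 in CD324+ libraries, 80.1, 98.9, and 74.0 in CD31+ libraries, and 99.98, 171, and 166 at E18.5. It was 43.4-fold lower in P2 than in CD324+ cells (log2 fold change -5.44 ± 0.17, adjusted p = 1.41e-09). All 3 CIP/KIP genes were thus lower in P2 cells than in both other E14.5 populations, but with age Cdkn1c fell (-0.95 ± 0.20, adjusted p = 0.00513) where Cdkn1a and Cdkn1b rose.

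The INK4 members were highest in CD31+ cells. Cdkn2c (chromosome 4, 109660876 to 109667189, minus strand) had 20.4, 21.0, and 15.1 CPM there, 6.71, 7.18, and 6.56 in CD324+ libraries, 6.68, 7.49, and 5.85 in P2 libraries, and 3.13, 3.87, and 3.57 at E18.5. The CD31+ libraries stood alone, the CD324+ and P2 libraries overlapped, and the E18.5 libraries were lowest. Cdkn2c was higher in CD31+ than in CD324+ cells by a log2 fold change of 1.46 ± 0.16 (adjusted p = 1.51e-05), lower in P2 than in CD31+ cells (-1.51 ± 0.16, adjusted p = 8.7e-06), and fell by 0.77 with age on the log2 scale (SE 0.15, adjusted p = 0.00335). Between P2 and CD324+ cells the log2 fold change was -0.05 ± 0.16 (adjusted p = 0.795).

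Cdkn2d (chromosome 9, 21288410 to 21291407, minus strand) had 12.8, 16.7, and 12.3 CPM in CD31+ libraries, 5.83, 6.33, and 6.17 in CD324+ libraries, 3.79, 3.78, and 3.01 at E18.5, and 2.04, 3.89, and 2.33 in P2 libraries. Only the last 2 overlapped. It was higher in CD31+ than in CD324+ cells by a log2 fold change of 1.18 ± 0.23 (adjusted p = 0.00105), and in P2 cells it lay below its CD324+ level (-1.17 ± 0.24, adjusted p = 0.00126) and its CD31+ level (-2.35 ± 0.24, adjusted p = 7.8e-06). P2 replicate 2, with the highest endothelial sum, had the most Cdkn2d among P2 libraries, and without it these values were -1.49 and -2.67. The fall with age (-0.61 ± 0.16, adjusted p = 0.0144) lost the call with the authors' factors (-0.37, adjusted p = 0.0887) and without E18.5 replicate 3 (-0.50, adjusted p = 0.0528).

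CD31+ libraries also held summed levels of 5 granulocyte genes of 130 to 567 CPM and of 4 megakaryocyte genes of 248 to 435 CPM, against at most 112 and 67.7 in any other E14.5 library. Their part in the INK4 levels was not tested.

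The other INK4 genes are Cdkn2a and Cdkn2b, which lie side by side in the genome. Cdkn2a had at most 26 reads in a library and was not tested. Cdkn2b, which encodes p15, had 3, 2, and 1 reads in the CD324+ libraries and no more than 20 in the other E14.5 libraries, but 3608, 1852, and 1696 reads in the E18.5 libraries (55.8, 24.0, and 23.5 CPM). The ratio of E18.5 to CD324+ cells, scaled to library size, was 600-fold with an exact 95% interval of 275 to 1634 that covers counting error only. E18.5 replicate 1, with the highest lung sum, also had the highest Cdkn2b level, and the part of lung or mesenchymal cells in this difference was not tested. In these libraries of different cell content, Cdkn2c and Cdkn2d were lower and Cdkn2b was higher at E18.5 than at E14.5. The call of Cdkn2d was lost in some alternatives, as given above.

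**Figure D3:**
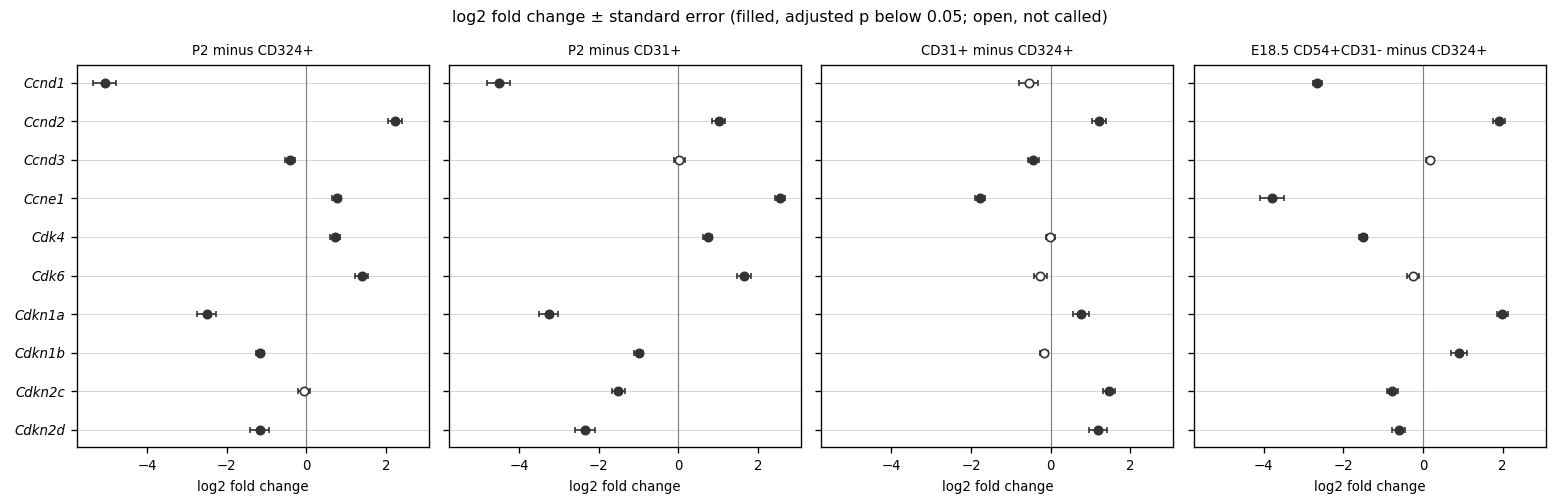
log2 fold change (horizontal axes) of each of the 10 genes in 4 comparisons, with bars of 1 standard error. Filled points passed the adjusted p threshold and open points did not. In both P2 panels the kinases and Ccne1 lie to the right and Ccnd1, Cdkn1a, Cdkn1b, and Cdkn2d to the left, and Ccnd2 lies to the right in all 4 panels.

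The wider path from G1 to S was followed with 36 further genes, of which 34 were tested (Cdkn2a and Fbxw7, the latter listed at 0 in every library, were not). In P2 cells 24 rose and 5 fell against CD324+ cells (median log2 fold change 0.57), and 22 rose and 6 fell against CD31+ cells (median 0.59). In CD31+ against CD324+ cells 10 were higher and 11 lower (median 0.0018). From E14.5 to E18.5 8 rose and 23 fell (median -0.86). The median of all genes lay between -0.13 and 0.03 in these comparisons, and 31.7% to 35.9% of all genes were higher and 33.5% to 39.4% lower.

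Against CD324+ cells, all 3 pocket proteins, which restrain E2F, and 6 of the 8 E2F factors rose in P2 cells, where 33.8% of all genes rose. Rb1 rose by 1.23 ± 0.13, Rbl1 by 0.82 ± 0.11, and Rbl2 by 1.41 ± 0.12 on the log2 scale, and E2f4, mainly a repressor together with the pocket proteins, rose by 1.85 ± 0.11 (adjusted p = 1.46e-07). E2f4 had 369, 388, and 357 CPM in P2 libraries and 91.7 to 117 CPM in the CD324+ and CD31+ libraries. E2f1, an activator, rose by 1.03 ± 0.10, E2f3 by 0.52 ± 0.10, E2f6 by 0.96 ± 0.10, E2f7 by 0.44 ± 0.12, and E2f8 by 0.40 ± 0.09, while E2f5 fell by 0.56 (SE 0.11) and E2f2 had -0.04 ± 0.08 (adjusted p = 0.714). Tfdp1, the partner with which E2F factors bind DNA, rose by 1.39 ± 0.09, and Cdc25a, the phosphatase that activates CDK2, by 1.55 ± 0.10. Cdk2 itself did not pass the test in P2 cells against either population (0.18 and 0.14) and fell only with age (-1.01 ± 0.08, adjusted p = 7.32e-05).

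CD31+ cells had their own members of this path. E2f7, a repressor, had 70.8, 56.4, and 51.6 CPM there against 13.8 to 20.7 in the other E14.5 libraries, and was higher than in CD324+ cells by 2.02 ± 0.13 on the log2 scale (adjusted p = 2.42e-07). Rb1 had 65.2, 55.9, and 69.2 CPM in CD31+ libraries, more than the 41.2 to 45.1 CPM of P2 cells and the 15.1 to 20.9 CPM of CD324+ cells. The Rb1 difference between P2 and CD31+ cells was -0.55 ± 0.13 (adjusted p = 0.00235), opposite to that of Rbl1 (0.94) and Rbl2 (0.96). Among the E2F factors, E2f7, E2f3, and E2f5 had log2 fold changes of -1.57, -0.04, and -0.02 in P2 against CD31+ cells. Those of the other E2F factors were positive, from 0.48 (E2f2) to 1.77 (E2f4).

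The Myc genes, which drive growth and act upstream of D-type cyclins and CDK4, divided between the populations. Myc had 248, 257, and 257 CPM in P2 libraries, 93.7, 99.5, and 120 in CD31+ libraries, 43.5, 50.4, and 49.8 in CD324+ libraries, and 8.62, 21.0, and 22.3 at E18.5. It was 5.24-fold higher in P2 than in CD324+ cells (log2 fold change 2.39 ± 0.11, adjusted p = 2.03e-08). Mycn, by contrast, had 20.8 to 22.7 CPM in CD324+ libraries and 0.505 to 1.04 CPM in P2 libraries (log2 fold change -4.92 ± 0.26, adjusted p = 5.71e-08). P2 cells had more Myc and Ccnd2, and CD324+ cells more Mycn and Ccnd1. A part of Myc or Mycn in the cyclin levels was not tested. The other populations had other combinations of levels, and the E18.5 libraries also held lung and mesenchymal RNA. At E18.5 mean Myc was the lowest (17.3 CPM), while mean Ccnd2 (82.9 CPM) was second to that of P2 cells. CD31+ cells had 6.36 CPM of Mycn with 107 CPM of Ccnd1, and E18.5 cells 9.50 CPM of Mycn with 21.8 CPM of Ccnd1.

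Skp2, which marks p27 for degradation, was lower in P2 than in CD324+ cells (log2 fold change -0.78 ± 0.10, adjusted p = 3.49e-05). Skp2 had 59.3, 52.1, and 52.4 CPM in P2 libraries, 92.4, 90.9, and 94.7 in CD324+ libraries, and 9.71, 13.01, and 10.6 at E18.5. CD31+ libraries held less Skp2 than P2 libraries, with 41.0, 48.1, and 39.3 CPM (log2 fold change of P2 against CD31+ cells 0.34). The fall of Skp2 with age, by 2.88 on the log2 scale (SE 0.12, adjusted p = 1.55e-05), was the largest decrease among the 34 pathway genes tested, followed by those of Ccna2 (-2.44), E2f8 (-2.36), Cks1b (-2.28), and Ccne2 (-2.23). Rbl2, a pocket protein of resting cells, rose by 1.55 ± 0.13 (adjusted p = 9.12e-05).

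**Figure D4:**
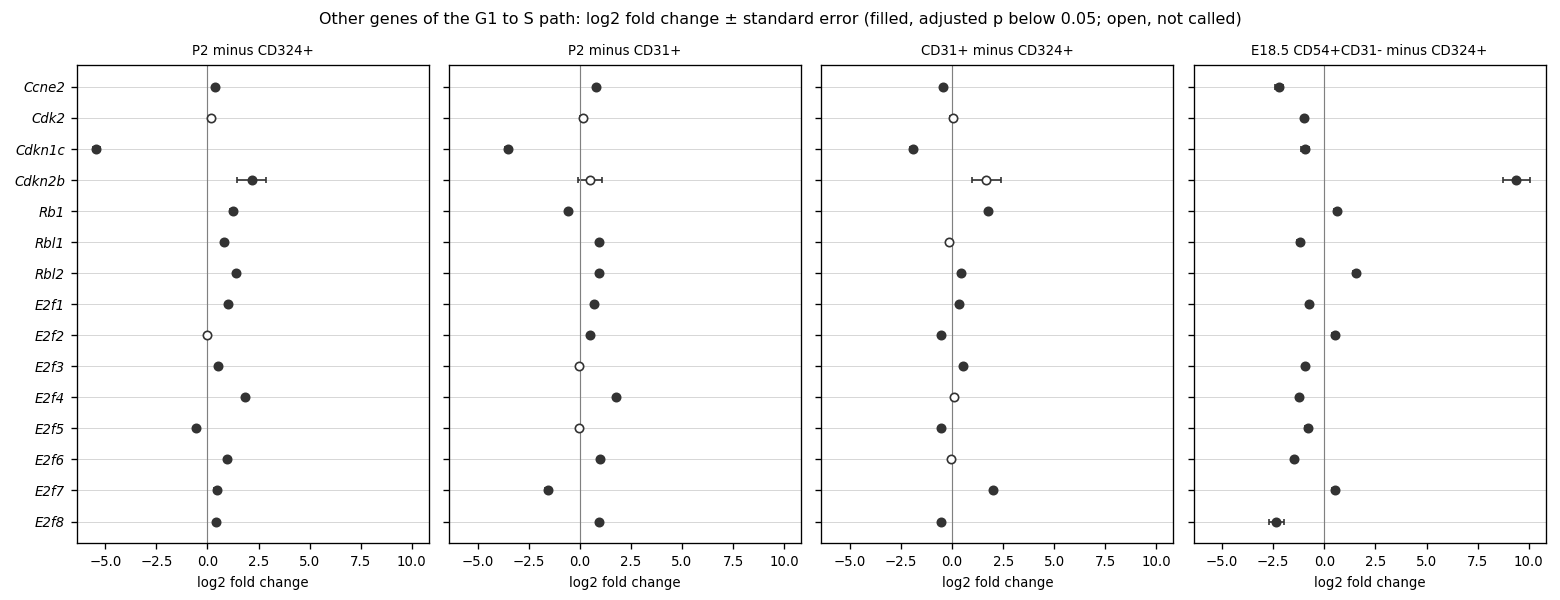
log2 fold change (horizontal axes) of 15 other genes of the G1 to S path in 4 comparisons, with bars of 1 standard error and filled points past the adjusted p threshold. E2f4 lies at 1.85 and 1.77 in the P2 panels and Cdkn1c at -5.44 and -3.51, and the Cdkn2b values rest on few reads at E14.5.

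Genes of proliferating cells were set beside the members. Of 12 such genes, 11 rose in P2 cells against CD324+ cells (median log2 fold change 1.20), where 33.8% of all genes rose. Against CD31+ cells 11 rose (median 1.31), where 34.3% of all genes rose, with Cdk1 the exception in both (0.11 and 0.12). All 12 fell from E14.5 to E18.5 (median -2.29), where 33.5% of all genes fell. Their summed level was 7562 to 8289 CPM in P2 libraries, 3439 to 4130 in CD324+ libraries, 3478 to 3924 in CD31+ libraries, and 471, 1112, and 1052 at E18.5, with the lowest value in E18.5 replicate 1. Between CD31+ and CD324+ cells, 1 rose and 3 fell (median -0.09), where 31.7% of all genes rose and 34% fell. Mki67 differed by -0.01 ± 0.10 (adjusted p = 0.933). CD31+ and CD324+ cells differed in Ccne1 by 1.78 on the log2 scale with near-equal sums of proliferation genes. Those sums were weighted to Mki67, with a mean of 1597 CPM in CD31+ and 1601 CPM in CD324+ libraries. The log2 fold changes of single genes in CD31+ against CD324+ cells ranged from -0.66 (Mcm7) and -0.55 (Birc5) to 0.42 (Mcm3). The members were not adjusted for these genes, and how much of a member's difference goes with them was not tested.

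At E18.5 the lung sum was at least 8497 CPM in each of the 3 libraries, so no E18.5 library without it could be compared. Without replicate 1, the library with the least hepatoblast and the most lung RNA, the same number of members, 8, passed the test. Of these, Ccnd1 had a log2 fold change of -2.69, Ccne1 -3.53, Cdk4 -1.53, Cdkn1a 1.97, Ccnd2 1.82, Cdkn1b 0.64, Cdkn2c -0.70, and Cdkn2d -0.68. Markers of other cells moved with age too. All 5 erythroid genes tested fell (median log2 fold change -2.32), to a sum of 114 to 162 CPM, and all 6 endothelial genes rose (median 2.15), to a sum of 167 to 213 CPM. Of all genes tested, 33.5% fell and 35.9% rose between the ages. The macrophage sum was 301 to 566 CPM at E18.5, with the highest value in replicate 1, as for the lung sum. Of its 6 genes 1 passed the test, Lyz2 (higher, 3.93). The others had log2 fold changes from -0.69 (Adgre1) to 0.03 (C1qa), and the median of the 6 was -0.10. The part of lung, mesenchymal, erythroid, endothelial, and macrophage cells in the age differences was not tested.

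Some members share exon bases with a gene on the opposite strand. The libraries were made with a strand-specific kit, but whether the counting used strand is not given in the sources used here, and without it reads of the 2 genes cannot be told apart. Tspan31 covers 19.7% of the exon bases of Cdk4, and its level was highest in CD324+ cells (69.0 CPM) and 18.7 CPM in P2 libraries, opposite to Cdk4. Oraov1 covers 23.4% of Ccnd1, at 7.87 to 10.9 CPM in each population. In P2 cells, with 10.9 CPM of Oraov1, Ccnd1 itself had 4.71 ± 2.31 CPM (SD, n = 3), so the part of shared bases in its low level there was not tested. Bysl covers 4.11% of Ccnd3 and had 119 CPM in P2 libraries and 15.4 CPM at E18.5.

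The genes whose pattern was most like that of a member were sought among 16643 genes, by the mean absolute difference in centred log2(CPM + 1) over the 12 libraries. For Ccnd1 they were Tubb6 (0.275), Kitl (0.290), and Pcdh1 (0.306). Kitl, which encodes the ligand of Kit, had 149 CPM in CD324+ cells, 88.8 in CD31+ libraries, 32.5 at E18.5, and 3.78 in P2 libraries, which were sorted for Kit. For Ccne1 they were Lin28b (0.192), an RNA-binding protein of fetal progenitors, Srm (0.278), which makes spermidine, and Lrp8 (0.287). Lin28b had 130 CPM in P2 libraries, 74.2 in CD324+ libraries, 24.2 in CD31+ libraries, and 3.43 at E18.5. For Cdk4 the nearest were Bola2 (0.0851), the proteasome gene Psmc3 (0.0896), and the nuclear import gene Kpnb1 (0.0907). For Cdk6 the nearest was Zfp783 (0.153), for Ccnd2 2810474O19Rik (0.136), for Ccnd3 Tab2 (0.0995), for Cdkn1a Metrnl (0.114), for Cdkn1b Snx4 (0.0938), for Cdkn2c Tpst2 (0.0797), and for Cdkn2d Sh3gl1 (0.151). These distances describe 4 populations and are not a test.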

How the data were processed

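Bulk RNA-seq counts of 12 libraries in 4 groups of 3, grouped by the sample labels, were analysed. The authors trimmed reads with cutadapt 1.11, aligned them to GRCm38 with STAR 2.5.0a and counted them per gene with featureCounts 1.4.6-p3, per the submitters' processing notes. They deposited raw counts and a score per gene, a rounded product of the count and a factor for that library. Every test ran on the counts. The score served in an alternative, as the source of the authors' library factors.

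Tests used edgeR 4.0.16 in R 4.3.3 (TMM, filterByExpr, quasi-likelihood, Benjamini-Hochberg over all genes, adjusted p below 0.05). One fit held the 9 E14.5 libraries and another the 6 CD54+CD31- libraries, with group as the only factor, after the scripts had been tested on simulated data. Total counts of 40714017 to 64368883 make counting error small beside the spread between libraries for all but the lowest genes, and 3 libraries per group limit the precision. No 2 libraries agreed within sampling noise. Standard errors are the size of the log2 fold change over the square root of F. Shares used CPM per kilobase of merged exon (GENCODE vM21, in which 37932 of 38127 identifiers were found) and exact two-sided permutation tests.

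Deviations of same-numbered libraries from their group means correlated across genes at 0.334, 0.260, and 0.122 between CD31+ and CD324+ cells, with numbers taken from the sample titles. The main fit was not paired there either. A paired fit (replicate block) was run as an alternative and is given where it changed a call. No threshold was set for these correlations. In the other comparisons they ranged from -0.020 to 0.336, the latter for replicate 3 of P2 and CD31+ cells.

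The 10 members and the lists of pathway, p53, proliferation and marker genes were chosen with earlier results of these data known. Named beside the members were up to 6 pathway genes with the largest changes per comparison, cyclin E2, CDK2, the other inhibitors, the pocket proteins and E2F factors, proliferation genes, and 3 genes of most similar pattern per member. Other named p53 and pathway genes, including Skp2's neighbours in rank, were chosen after their values were seen. Alternatives were DESeq2's size factors, the authors' factors, DESeq2 1.42.0, no filter, at least 10 counts in every library, the replicate block, other sets of libraries in the fit, genes above 1% of a library left out, shares without division by length, and each library left out in turn.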

Additional observations from a re-analysis of the deposited data

How the results depend on the processing

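Of 590 log2 fold changes of the members under an alternative, 561 kept their sign and their side of the threshold. With the sign kept, 6 lost and 8 gained a call. The sign changed in 15, 0 of them among the 32 called. The 15 belonged to values near 0 in the main fit. For Ccnd3 between P2 and CD31+ cells they were -0.00033 with DESeq2's size factors, -0.34 with the authors' factors, -0.00037 with DESeq2, -0.11 with at least 10 counts in every library, and -0.079 to 0.20 when each library was left out. For Cdk4 between CD31+ and CD324+ cells they were 0.016 with DESeq2's size factors, with DESeq2 and with the 6 libraries alone, 0.097 with the authors' factors, 0.033 with at least 10 counts, and -0.20 to 0.094 when each library was left out. Ccnd3 between the ages was -0.0071 with all 12 libraries in one fit, and Cdkn2c between P2 and CD324+ cells was -0.13 to 0.045 when each library was left out. The cause was not tested. Ccnd3 between P2 and CD31+ cells with the authors' factors, counted among the sign changes, also passed the threshold (adjusted p = 0.0326). The calls gained and lost stand beside each gene.

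The authors' factors shifted the median log2 fold change of all genes by -0.26 for P2 against CD324+ cells, -0.37 for P2 against CD31+ cells, 0.11 for CD31+ against CD324+ cells and 0.23 for age. The higher genes among those called went from 48.3% to 38.2% in the first and from 46.6% to 33.9% in the second.

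Without division by exon length, Ccnd1 was 54.8%, 44.1% and 10.5%, and Ccnd2 8.81%, 24.3% and 39.8%, of the D-type cyclins in CD324+, CD31+ and E18.5 CD54+CD31- cells. In P2 cells Ccnd1 was 2.32%, Ccnd2 58.6% and Ccnd3 39.1%. Ccnd3 was 36.4% and 31.7% in CD324+ and CD31+ cells. Cdk6 was 56.3%, 45.1%, 40.8% and 65.8% of the kinase sum in P2, CD324+, CD31+ and E18.5 cells, more than Cdk4 in P2 and E18.5 cells, since its exons are longer. When each library was left out, Ccnd1 stayed at 3.15% to 5.19% in P2 cells and 68.6% to 71.0% in CD324+ cells.

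The replicate block called 8 members between CD31+ and CD324+ cells where 6 were called without it, and 9, 9 and 8 in the other comparisons, as without it. Correlations of same-numbered libraries in those comparisons ranged from -0.020 to 0.336.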
